A study of Mus musculus with 34 samples.

Results

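The cytosolic ribosomal protein genes code for the proteins of the ribosome that works in the cytoplasm. They were taken by name: every entry whose symbol was Rpl or Rps with a number and at most a short suffix, Rplp0, Rplp1, Rplp2 or Rpsa, without pseudogenes. The rule found 83 of the 25965 entries, 51 of the large subunit and 32 of the small subunit. It also took paralogues such as Rpl22l1 and Rps27l, and it left out ribosomal protein genes with other kinds of name, such as Fau, Gnb2l1 and Rpl36al.

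Each ribosomal protein is needed in about the same amount as its partners, so their mRNAs are known to be made and translated together. Their transcripts are short and abundant, and they typically begin with a C followed by a run of pyrimidines, the 5′ terminal oligopyrimidine tract, through which mTOR signalling controls their translation. A ribosomal protein made in excess is degraded, and in cumulus cells (CCs), the somatic cells around the oocyte, protein synthesis accompanies the expansion of the cumulus before ovulation.

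RNA sequencing covered CCs of superovulated C57BL/6J females, with about 50 cells per library, in 34 libraries. In the pharmacological model, females 8 weeks old received intraperitoneal saline (16 C, n = 3) or 100 µg of leptin per day in split doses (16 L, n = 5), for 16 days. In the diet-induced obesity protocol, animals of the same starting age were kept on chow (CD) or on a diet high in fat (HFD), either for 4 weeks (4-week CD, n = 5; 4-week HFD, n = 5) or for 16 weeks (16-week CD, n = 6; 16-week HFD, n = 7), and another 3 libraries came from low weight gainers after 16 weeks of HFD. Per the labels, 11% of the energy of CD and 58% of that of HFD came from fat. The labels describe cells of a single cumulus-oocyte complex, whereas the methods speak of cells per animal, so p-values measure the spread between libraries, whatever its source.

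Between 1104611 and 13207018 reads were assigned to genes per library. Of 19 cumulus and granulosa markers, 17 to 19 had reads in each group. They summed to 4031 to 42973 CPM (the reads of a gene relative to the library total, scaled by TMM) and were higher in all 16 C libraries (16413 to 42973) than in all 16 L libraries (4031 to 11096). Library 18 of 16 L stood apart, with oviduct epithelium markers at 35543 CPM, theca and stroma markers at 1961 and red blood cell markers at 10985, against 203 to 228, 0.758 to 4.38 and 1.54 to 30.2 in 16 C. Oviduct markers also stood at 1444, 1865 and 673 CPM in libraries 20, 21 and 23 of 16 L, and at 130 in library 19. Macrophage and neutrophil markers were at 1373 and 1542 CPM in libraries 20 and 23, against 135 to 826 in 16 C. Red blood cell markers reached 1940 CPM in library 21, and oocyte markers 569 CPM in library 5 of 4-week HFD. In 16-week HFD replicate 10, oviduct markers were at 682 CPM, theca and stroma markers at 42.3 and red blood cell markers at 185. Low weight gainer 22 had oviduct markers at 500 CPM and red blood cell markers at 96.5. The medians of oviduct markers in these 2 groups were 254 and 219 CPM. In such bulk samples, fewer cells of a type and less RNA per cell cannot be told apart.

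Of the 83 genes, 80 passed the filter on low counts in every comparison. The other 3 were Rpl39l (15 reads in 4 libraries), Rpl10l (6 reads in 2 libraries) and Rpl3l (3 reads in 2 libraries), paralogues known from testis or striated muscle. On the TPM scale, which also allows for transcript length, the highest mean levels over the 34 libraries were those of 4 small subunit genes, Rps25 (2550 ± 1872, SD, n = 34), Rps14 (2114 ± 652), Rps27 (1835 ± 819) and Rps27a (1465 ± 1063, coding for a fusion of ubiquitin with the ribosomal protein), followed by Rpl34 (1397 ± 575) of the large subunit. The median level of the 83 genes was 632 TPM. Above the 3 near-silent paralogues, the lowest were Rpl7l1, a paralogue of Rpl7, at 97.5 ± 25.9 TPM, and Rps20 at 101 ± 99.7. The level of Rps20 was computed with an annotated transcript of 3706 bases and is understated if a shorter form is the one used. Apart from the step to the near-silent paralogues, neighbours in this order differed by less than their SD.

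**Figure D1:**
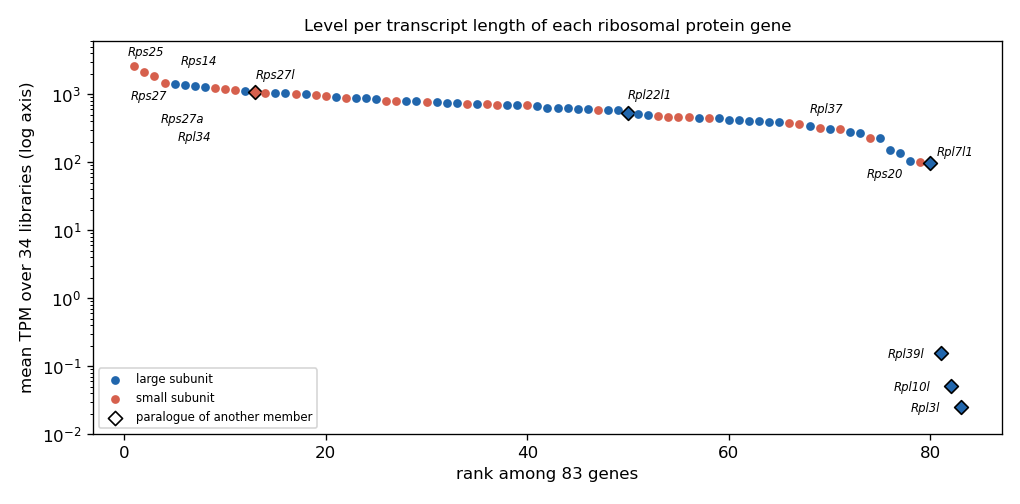
Mean level of each of the 83 ribosomal protein genes over 34 libraries, in TPM on a log axis, ordered by level; circles are genes of the large (blue) and small (red) subunit, and diamonds are paralogues of another gene of the set. All genes but 3 lie between 97.5 and 2550 TPM, and the paralogues Rpl39l, Rpl10l and Rpl3l lie under 0.2.

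Paralogues that were read in CCs reached the level of their partners in some groups. Rps27l, a paralogue known as a p53 target, had 1071 ± 511 TPM beside 1835 ± 819 for Rps27. Its mean exceeded that of Rps27 in 16 C (1754 ± 440 against 1358 ± 548) and in the low weight gainers (878 ± 82.9 against 727 ± 157), by less than the SD of Rps27, and was lower in 4-week CD (685 ± 281 against 2503 ± 395) and in 16 L (765 ± 484 against 3062 ± 710). Rpl22l1 and Rpl22, which encode alternative forms of the same large subunit protein, had 534 ± 375 and 602 ± 560 TPM. By contrast Rpl7, Rpl10, Rpl3 and Rpl39 stood at 752, 881, 445 and 998 TPM, far above Rpl7l1, Rpl10l, Rpl3l and Rpl39l.

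The annotated transcripts had a median length of 729 bases and a median GC content of 51.6%. Many genes of this family have processed pseudogenes in the mouse genome, and a median of 53.6% of the 50-base stretches of a transcript also occurred in the transcript of another annotated gene. The share was 98.7% for Rps27, 92.4% for Rps10 and 92.1% for Rpl10. For Rps10, 90.65% of the stretches were shared with transcripts of RPS10-NUDT3, an entry that is not named as a pseudogene. The 60 entries with -ps in their symbol held 0.002% to 0.021% of the reads of a library. Entries with other names that share stretches, such as Gm10288 with Rpl11 and Gm15500 with Rpl5, are not in that sum. How reads with several matches were treated is not given in the sources used here. Levels of the genes with a high share are therefore uncertain, and Spearman's rho of level with shared share was -0.01 over the 83 genes (across genes).

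RefSeq promoters (GRCm38.p6) were at hand for 63 of the genes. On the gene's own strand, 13 of them (20.6%) began exactly with a C followed by at least 4 C or T, against 3.01% of all 27025 genes in the same table, and 29 (46.0%) had such a tract starting within 5 bases of the annotated start, against 21.2%. The 30-base windows of some of the genes named in the comparisons are shown, from 10 bases before the annotated start to 20 after it. The tract is in capitals. Rps27 lies at chr3:90213629-90213658 (minus strand), Rpl35 at chr2:39005112-39005141 (minus), Rpl38 at chr11:114668570-114668599 (plus), Rpl28 at chr7:4792955-4792984 (plus), Rps10 at chr17:27635225-27635254 (minus) and Rpl22l1 at chr3:28805498-28805527 (plus). Rpl6 (chr5:121204491-121204520, plus) and Rpl37 (chr15:5116603-5116632, plus) are shown as 2 genes without a tract within 5 bases of the annotated start. Among called genes named below but not shown, Rpl18, Rps26 and Rps27l had a tract within 5 bases. Rpl37a, Rpl36a and Rpl41 had none.
Rps27: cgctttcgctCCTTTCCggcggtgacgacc
Rpl35: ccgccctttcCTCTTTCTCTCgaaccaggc
Rpl38: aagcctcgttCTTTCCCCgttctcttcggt
Rpl28: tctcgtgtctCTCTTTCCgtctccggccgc
Rps10: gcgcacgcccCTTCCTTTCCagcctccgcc
Rpl22l1: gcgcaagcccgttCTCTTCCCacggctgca
Rpl6: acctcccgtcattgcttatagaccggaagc
Rpl37: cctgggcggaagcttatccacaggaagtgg

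The 83 genes together took between 0.990% and 4.68% of the reads of a library. The shares were 1.23%, 2.07% and 1.62% in 16 C and 2.77%, 2.38%, 3.67%, 4.68% and 4.38% in 16 L (replicates 18, 19, 20, 21 and 23), so every 16 L library lay above every 16 C library. The mean was 2.18 times as high in 16 L (3.57% ± 0.99, SD, n = 5) as in 16 C (1.64% ± 0.42, n = 3). With the 50 most abundant other genes left out of the total, the groups overlapped: replicate 19 of 16 L stood at 2.78% and replicate 2 of 16 C at 2.94%, and the ratio of the means was 1.74. The 3 shallowest 16 L libraries (20, 21 and 23, with 1104611 to 2241697 reads) had the 3 highest shares. Among the 16 L libraries they were also the 3 with the highest oviduct marker levels after replicate 18, whose part in the shares was not tested.

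At 4 weeks, the shares in CD ran from 3.00% to 4.00% (3.48% ± 0.42, n = 5). In HFD they were 3.14%, 3.46% and 3.37% in replicates 3, 4 and 5, within the range of CD, and 2.07% and 1.88% in replicates 13 and 14, below it. Replicates 13 and 14 were also the 2 deepest libraries of the diet protocol (9255287 and 12641896 reads). The 16-week groups overlapped each other and were lower: 0.990% to 1.88% in CD (1.56% ± 0.31, n = 6), 1.18% to 1.88% in HFD (1.43% ± 0.25, n = 7), and 1.43%, 1.01% and 1.08% in the low weight gainers (1.17% ± 0.22, n = 3). No comparison of 4 with 16 weeks was designed, and age, diet time and library preparation cannot be told apart between them. The exact binomial 95% interval of a single share was at most 0.079 percentage points wide, and it covers counting error only.

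**Figure D2:**
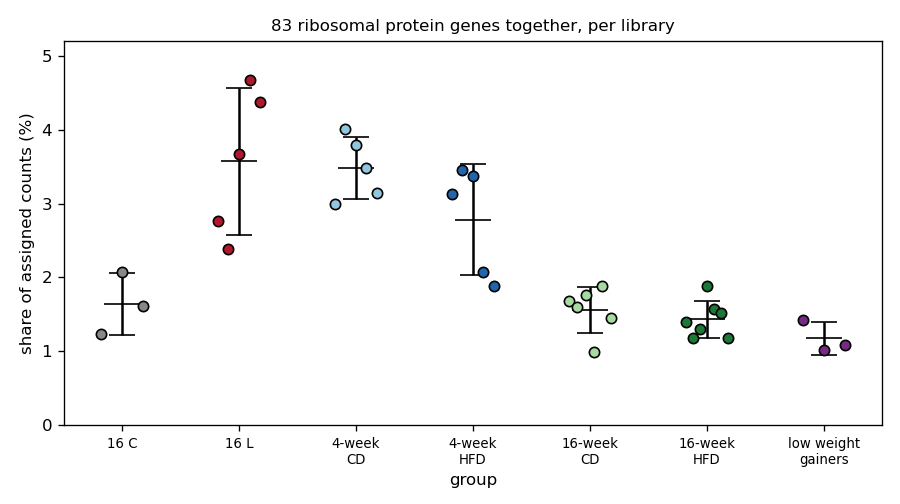
Share of assigned counts (%) held by the 83 ribosomal protein genes together, by group; each point is a library, and the bar and whiskers are the mean and SD. The 16 L libraries (2.38% to 4.68%) lie above the 16 C libraries (1.23% to 2.07%), and the 4-week HFD libraries fall into 3 between 3.14% and 3.46% and 2 near 2%.

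The genes did not take equal parts of this share in every library. Large subunit genes held 50.2% to 59.5% of it. Rps25, a small subunit protein used in internal initiation, held 6.60% to 11.2% of the ribosomal protein reads in 16 C, but 0.728% to 1.34% in 16 L replicates 19, 20, 21 and 23 and 7.93% in replicate 18. It held 0.548% to 1.69% in all 4-week libraries and 3.22% to 10.7% in 16-week HFD. Within 16-week CD, replicates 9 and 13 stood at 10.1% and 6.73%, and the other 4 between 1.28% and 2.51%. Rpl5, which carries the 5S ribosomal RNA and binds Mdm2, held 19.7% of the ribosomal protein reads in 16 C replicate 2 and 1.73% to 12.0% elsewhere. Rpl5 or Rps25 was the leading gene in 20 of the 34 libraries.

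The first comparison set the libraries after 16 days of leptin against those after saline. Relative to the reads of the library, 6 of the 80 genes were higher in 16 L and none lower (quasi-likelihood test of edgeR, Benjamini-Hochberg adjusted p from 0.0312 to 0.0478). That is 7.5% of the genes, whereas 4.06% of all 11723 genes tested were called higher and 8.56% were called in either direction. The 6 genes code for core proteins of both subunits: Rpl28, Rpl37a, Rpl8 (close to the peptidyl transferase centre) and Rpl18 of the large subunit, and Rps20 and Rps10 of the small subunit. The direction was wider than the calls. An unadjusted p under 0.05 with a higher level in 16 L was found for 37 genes (46.2%, against 19.9% of all genes). A positive log2 fold change was found for 64 of 80 genes (80%, against 58.8% of all genes tested), and the median was 0.82 against 0.27 over all genes. The median was 0.90 for the 48 large subunit genes and 0.65 for the 32 small subunit genes. The 2 groups also differed in cell type markers, as given above, and the part of that difference in these values was not tested.

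Rpl28 had 21.2, 47.9 and 40.9 CPM in 16 C and 83.5, 87.5, 237, 342 and 255 CPM in 16 L. The groups did not overlap, and replicates 18 and 19 were the lowest of 16 L. Its level was 5.42 times as high in 16 L (log2 fold change 2.44 ± 0.59, SE, adjusted p = 0.0395 by edgeR).

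Rps10 had 42.4, 61.1 and 59.1 CPM in 16 C and 109, 144, 225, 297 and 280 CPM in 16 L, again without overlap. The fold was 3.88 (log2 1.96 ± 0.43, adjusted p = 0.0312 by edgeR). Rps20 was at 44.7, 141 and 96.1 CPM in 16 C and at 267, 190, 451, 501 and 452 CPM in 16 L. The other 3 called genes rose by 3.52 (Rpl37a), 3.05 (Rpl8) and 2.51 times (Rpl18), and in all 3 every 16 L library lay above every 16 C library.

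For 25 of the 80 genes (31.2%), all higher in 16 L, the libraries of both groups were fully apart, beside 11.9% of all genes tested with 16 L above 16 C. The highest fold change, chosen after its value was seen, was that of Rpsa, also known as the laminin receptor. Its CPM was 108, 147 and 112 in 16 C, and 209 and 249 in replicates 18 and 19 against 1070, 1696 and 1101 in replicates 20, 21 and 23 of 16 L (log2 fold change 2.81 ± 0.77, adjusted p = 0.0515 by edgeR). The genes at the other end, likewise seen first, were Rpl5 with a log2 fold change of -1.83 ± 0.62 (adjusted p = 0.0864) and Rps25 with -1.63 ± 0.92 (adjusted p = 0.244). Rps25 was at 1100 to 3633 CPM in 16 C, at 2454 in replicate 18 and at 229 to 265 in the other 4 libraries of 16 L. Rpl37, the reference gene of the real-time PCR assays in the study, was at 58.4, 148 and 125 CPM in 16 C and 208, 141, 240, 300 and 277 CPM in 16 L (log2 fold change 1.08 ± 0.42, adjusted p = 0.117 by edgeR), so the groups overlapped by 1 library.

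**Figure D3:**
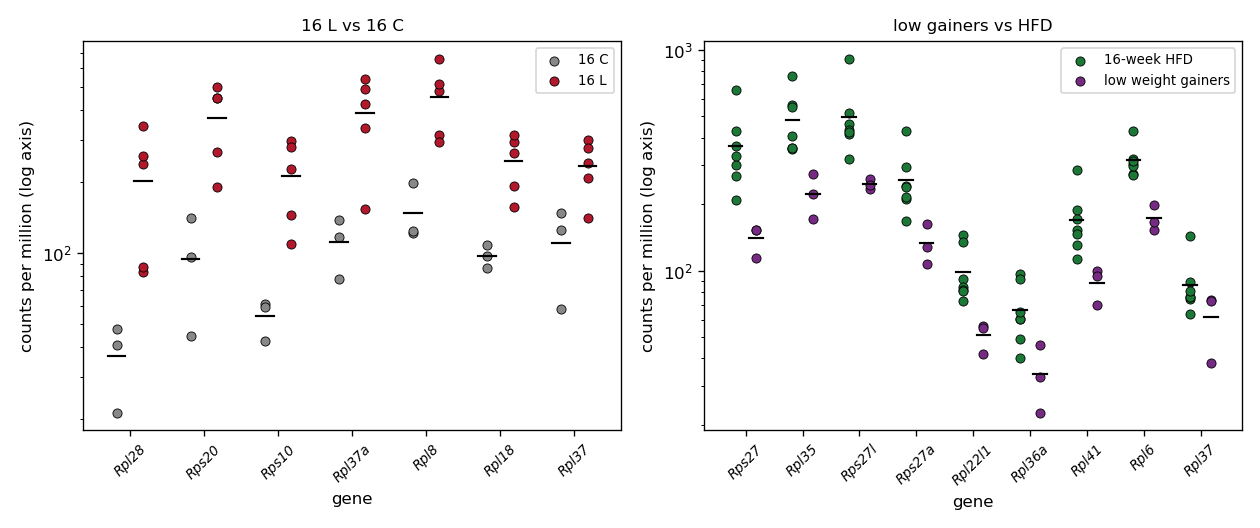
Level of called genes and of Rpl37 in each library, in CPM on a log axis. The left side shows 16 L (red) beside 16 C (grey), with all genes called there. The right side shows the low weight gainers (purple) beside 16-week HFD (green), with only part of the genes called there. Points are libraries and bars are means. On the left all genes but Rpl37 show no overlap. Among the genes shown on the right, the low weight gainers lie below every 16-week HFD library except for Rpl36a and Rpl37.

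The number of calls hung on single libraries. Without replicate 18, the library with oviduct and blood markers, 29 of the 80 genes were called higher and 8 lower, while 41.8% of all genes were then called. Without replicate 19 there were 21, all higher, beside 14.4% of all genes. Leaving out any 1 of the 3 saline libraries or of replicates 20, 21 and 23 left 0 calls, with 0.235% to 1.28% of all genes called. The median stayed between 0.61 and 1.06 in all of these.

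Transcript length and GC content moved with the groups. The deviation of a gene's level from its mean over all libraries fell with GC in 16 C (-0.45 to -0.29 log2 units per 10 points of GC) and rose in 16 L (0.03 to 0.63). It fell with each doubling of length in 16 C (-0.20 to -0.15) and in 16 L replicate 18 (-0.39), and rose in the other 4 (0.12 to 0.19). Other genes of 300 to 1400 bases and over 30 CPM (n = 1019) had a median log2 fold change of -0.52, opposite in sign to the 0.81 of the 73 ribosomal protein genes of that class. Among transcripts of at least 55% GC, the median was 1.66 for 16 ribosomal protein genes and 1.06 for 2826 others. With both trends, fitted on the other genes, as an offset, the median was 1.35, and 13 genes were higher and 0 lower (16.2%, against 6.07% of all genes called). Rps10, Rps20, Rpl28 and Rpl37a were still called, whereas Rpl8 and Rpl18 were not (adjusted p = 0.0589 and 0.079 by edgeR). For Rps20 the offset used the annotated transcript of 3706 bases, and its correction could differ if a shorter form is the one used.

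**Figure D4:**
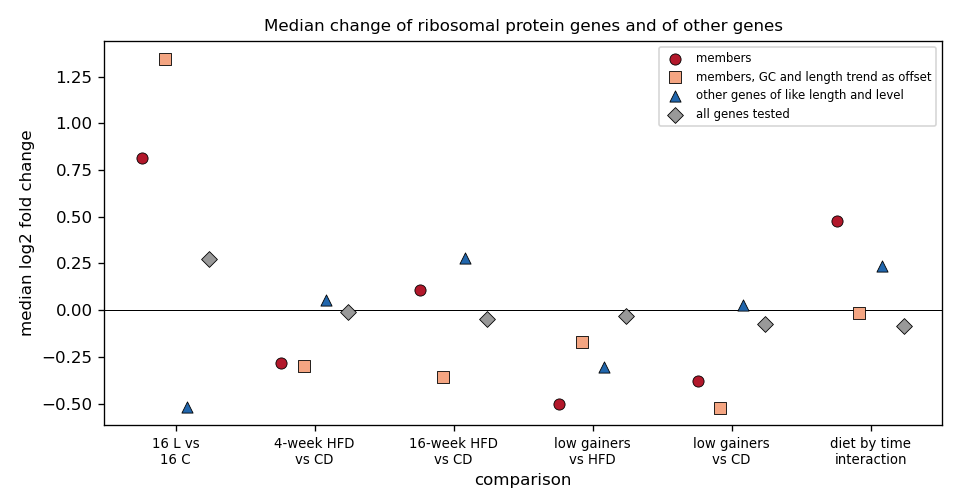
Median log2 fold change in each comparison for the 80 ribosomal protein genes (circles), the same genes with the GC and length trend as an offset (squares), other genes of 300 to 1400 bases and over 30 CPM (triangles) and all genes tested (diamonds). In 16 L against 16 C the ribosomal protein genes (0.82) and the other short genes (-0.52) lie on opposite sides of 0, and with the offset the values move to 1.35 there and from 0.48 to -0.014 in the interaction.

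The second comparison was that of 4 weeks of HFD with CD. Only Rpl38, a large subunit protein known for the translation of Hox mRNAs, was called, and it was lower. That is 1.25% of the 80 genes, beside 3.06% of all 11727 genes called lower and 4.26% called in either direction. Rpl38 had 156, 380, 194, 242 and 124 CPM in CD and 116, 121, 119, 76.4 and 63.7 CPM in HFD. All HFD libraries lay below all CD libraries, by a narrow margin for replicates 3, 4 and 5. The log2 fold change was -1.18 ± 0.32 (0.442 times the CD level, adjusted p = 0.0468 by edgeR). Leaving out any single library other than CD replicate 11 left 0 calls, beside 0.0674% to 3.12% of all genes. Without CD replicate 11 there were 9 (11.2%), below the 14.4% of all genes called in that fit.

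Of the 80 genes, 57 had a negative log2 fold change (71.2%, against 50.7% of all genes), with a median of -0.28 against -0.01. For 6 genes, all lower in HFD, the groups were fully apart (7.5%, against 3.75% of all genes). The short mRNAs Rpl41 and Rplp1, the latter of the ribosomal stalk, were near the threshold with log2 fold changes of -1.10 ± 0.32 and -1.05 ± 0.35 (adjusted p = 0.0592 and 0.0875 by edgeR). In CD, replicate 2 held the highest value of all 3 genes, 879 CPM for Rpl41 and 1100 CPM for Rplp1. Rpl37 was at 169 to 284 CPM in CD and 95.2 to 216 CPM in HFD (log2 fold change -0.39 ± 0.27, adjusted p = 0.375).

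The direction at 4 weeks rested on replicates 13 and 14 of HFD. Without both, a choice made after seeing the shares, the median was -0.01, 40 of 80 genes were positive and 0 were called, while 7.71% of all genes were called. Replicate 14 also had the opposite GC trend (-0.33 log2 units per 10 points) to replicates 3, 4 and 5 (0.39 to 0.50). Other genes of 300 to 1400 bases had a median of 0.06. With the GC and length trend as an offset, the median of the ribosomal protein genes was -0.30. Of the 80 genes, 20 were then positive and 0 were called, beside 3.05% of all genes.

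After 16 weeks of HFD, 0 of the 80 genes were called against CD by edgeR, and 3 of all 10861 genes (0.0276%). The lowest adjusted p was 0.155 for Rpl8 (163 ± 52.0 CPM in CD, n = 6, and 112 ± 22.7 in HFD, n = 7), which was also the only gene with an unadjusted p under 0.05 (1.25%, against 25.3% of all genes). DESeq2 and limma-voom with quality weights called 0 as well, beside 9.32% and 0.046% of all genes. Leaving out CD replicate 9 gave 3 calls (3.75%), beside 20.5% of all genes. The median log2 fold change was 0.11, against -0.05 over all genes. Its sign depended on the scaling and on the trend correction: it was -0.22 with total counts, where the median of all genes was -0.40, and -0.36 with GC and length as an offset. Levels spread widely within CD. Rpl35, which lies near the peptide exit tunnel, ran from 56.1 to 638 CPM in CD and from 357 to 761 CPM in HFD, and Rps25 from 155 to 2483 and from 510 to 2370 CPM. Replicates 1 and 2 of CD had a positive length trend (0.33 and 0.32 log2 units per doubling), and the other 4 a negative one (-0.25 to -0.12).

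The low weight gainers, animals on the same diet for the same time that gained little, had lower levels than 16-week HFD. Of the 80 genes, 16 were called lower and 0 higher, 20% of the genes, beside 9.93% of all 11258 genes called lower and 10.8% called higher (20.7% in either direction). They comprised 9 large and 7 small subunit genes, with log2 fold changes from -1.43 (Rps27) to -0.68 (Rps26). A negative log2 fold change was found for 74 of 80 genes (92.5%, against 51.7% of all genes), and the median was -0.50 against -0.03.

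Rps27, a zinc finger protein of the small subunit, was at 153, 114 and 153 CPM in the low weight gainers. In 16-week HFD its lowest, median and highest values were 210, 330 and 655 CPM, all above the low weight gainers. The log2 fold change was -1.43 ± 0.32 (0.372 times, adjusted p = 0.00602 by edgeR). Its paralogue Rps27l had 259, 235 and 244 CPM against 320, 431 and 910 CPM (-1.06 ± 0.29, adjusted p = 0.0182), and Rps27a had 163, 128 and 107 CPM against 168, 238 and 428 CPM (0.502 times, adjusted p = 0.0188).

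Of the large subunit genes, Rpl35 was at 223, 171 and 274 CPM against 357, 407 and 761 CPM in 16-week HFD (lowest, median, highest), without overlap (log2 fold change -1.15 ± 0.29, adjusted p = 0.0124 by edgeR). Rpl6 was at 198, 152 and 167 CPM against 272, 304 and 427 CPM (-0.91 ± 0.22, adjusted p = 0.00856). Rpl22l1, Rpl36a and Rpl41, which encodes one of the smallest proteins of the ribosome, stood at 0.505, 0.505 and 0.506 times the level of 16-week HFD. Lower values in all 3 low weight gainers than in every 16-week HFD library were found for 13 of the 80 genes (16.2%, against 8.84% of all genes). Rpl37 was at 73.4, 38.1 and 72.4 CPM and overlapped 16-week HFD (63.8 to 143 CPM; -0.53 ± 0.27, adjusted p = 0.166). The 6 genes with a positive log2 fold change included Rpl7a (0.48 ± 0.22, adjusted p = 0.133).

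In this comparison GC moved with the result. The GC trend was negative in all 7 libraries of 16-week HFD (-0.79 to -0.33) and ran from -0.17 to 0.15 in the low weight gainers. Other genes of 300 to 1400 bases had a median log2 fold change of -0.30, with 15.8% called lower, beside -0.52 and 21.9% for the 73 ribosomal protein genes of that class. At 55% GC and over the signs differed: -0.31 for 16 ribosomal protein genes and 0.50 for 2493 others. With the GC and length trend as an offset, the median was -0.17, 28 of the 80 genes were positive, and 7 were called lower and 1 higher (10%, against 8.76% of all genes called). Only 5 of the 16 calls were kept, among them Rps27, Rpl35 and Rpl6 (-0.77, -1.24 and -0.84). Among those lost were Rpl22l1 (-0.05), Rps27l (-0.22) and Rpl36a (-0.26, adjusted p = 0.532 by edgeR). Leaving out low weight gainer 22 or 23 left 2 calls each, beside 12.6% and 5.19% of all genes, and leaving out 21 left 11, beside 9.94%. Without HFD replicate 6 there were 26, beside 24.5% of all genes.

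Against 16-week CD, 0 of the 80 genes were called in the low weight gainers by edgeR (1 of all 11620 genes, 0.00861%), with 7 lower at an unadjusted p under 0.05 (8.75%, against 7.08% of all genes). DESeq2 and limma-voom called 0 too, beside 1.81% and 1.69% of all genes. The median log2 fold change was -0.38 against -0.08 over all genes, and 72 of 80 genes were negative (90%, against 55.7%). Rps27 was at 240 ± 128 CPM in CD (n = 6) and 140 ± 22.5 in the low weight gainers (n = 3), and Rps27a at 270 ± 80.1 and 133 ± 28.4 (log2 fold change -1.04 ± 0.34, adjusted p = 0.336). Without CD replicate 9 the median was -0.16, and with the GC and length trend as an offset it was -0.52. The low weight gainers enter both comparisons, so these share samples.

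For the interaction of diet and time, the change with HFD at 16 weeks minus that at 4 weeks, 0 of 80 genes were called by edgeR, beside 3.66% of all 12235 genes, and 14 had an unadjusted p under 0.05, all positive (17.5%, against 9.36% of all genes positive at that p). DESeq2 called 3 higher, beside 8.88% of all genes, and limma-voom 3 higher and 3 lower, beside 19.2%. Rpl38 came nearest, with 1.71 ± 0.53 (adjusted p = 0.058): it was lower with HFD at 4 weeks and at 58.0 ± 36.8 CPM in CD and 83.7 ± 24 CPM in HFD at 16 weeks. The median was 0.48 against -0.09 for all genes, and -0.014 with the GC and length trend as an offset. Leaving out 16-week CD replicate 9 gave 12 calls (15%), beside 13.8% of all genes, and leaving out 4-week CD replicate 11 gave 4, beside 9.73%.

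**Figure D5:**
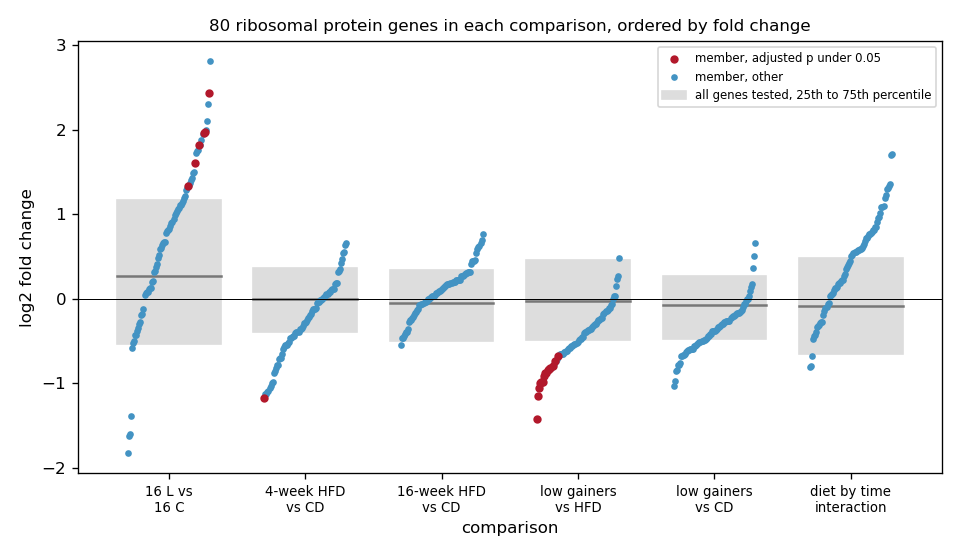
Log2 fold change of the 80 ribosomal protein genes in each comparison, ordered from lowest to highest; red points passed an adjusted p of 0.05 (edgeR), and grey boxes with a line show the 25th to 75th percentile and median of all genes tested. The highest value in 16 L (Rpsa, 2.81) is not called, and the 16 calls in the low weight gainers lie between -1.43 and -0.68.

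Other genes around the ribosome did not all follow. The proteins of the mitochondrial ribosome, which translates the mitochondrial genome, had a median log2 fold change of -0.62 in 16 L over 76 genes, with 1 higher (Mrpl52) and 6 lower, beside 4.06% of all genes higher and 4.50% lower, among them Mrps22 (-2.75 ± 0.59) and Mrpl1 (-2.29 ± 0.34). In the low weight gainers against 16-week HFD they had a median of -0.35, with 12 lower and 1 higher, beside 9.93% of all genes lower and 10.8% higher. The 17 other transcripts known for a terminal oligopyrimidine tract, such as those of translation factors, had a median of 0.11 in 16 L. Of these, 1 was higher (Eif3f, 1.57 ± 0.42), beside 4.06% of all genes. In the low weight gainers against 16-week HFD 5 of the 17 were lower, beside 9.93% of all genes, and the median was -0.36. Among the 5 were Eif3e (-1.02 ± 0.23), Gas5 (-0.89 ± 0.23) and Npm1 (-0.67 ± 0.22). Npm1 is also counted among the ribosome biogenesis genes below.

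Of 34 ribosome biogenesis genes, 1 was higher and 2 were lower in 16 L (Bysl 1.81 ± 0.44, Wdr12 -2.07 ± 0.36, Rpf2 -2.17 ± 0.41). Of all genes tested there, 4.06% were higher and 4.50% lower. In the low weight gainers against 16-week HFD, 4 of the 34 were higher and 4 lower, beside 10.8% and 9.93% of all genes. Among 16 regulators, Myc, a transcription factor that drives ribosome production, was lower in 16 L (-2.64 ± 0.54, adjusted p = 0.027 by edgeR). Larp1, which binds the tract, was lower at 4 weeks of HFD (-1.07 ± 0.24, adjusted p = 0.0279 by edgeR). Each was the only regulator called in its comparison, beside 4.50% and 3.06% of all genes called lower. In the low weight gainers against 16-week HFD, 2 of the 16 regulators were higher, beside 10.8% of all genes. They were Max, the partner of Myc (1.13 ± 0.21, adjusted p = 0.00266 by edgeR), and Rps6kb2, a kinase of ribosomal protein S6 (1.31 ± 0.36, adjusted p = 0.0178 by edgeR). The 75 tested nuclear genes for subunits of oxidative phosphorylation, also short transcripts, had a median of -0.53 in 16 L. There 1 was higher and 3 were lower, beside 4.06% and 4.50% of all genes. The median was 0.48 in 16-week HFD, with 0 called, beside 0.0276% of all genes. In the low weight gainers against 16-week HFD it was -0.60, with 3 higher and 25 lower, beside 10.8% and 9.93% of all genes. Rpl36al, a ribosomal protein gene outside the name rule, was lower in the low weight gainers against 16-week HFD (-0.87 ± 0.25).

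The genes with and without a pyrimidine tract near the annotated start were read side by side as a description. In 16 L the median log2 fold change was 0.81 for the 29 genes with a tract and 0.41 for the 31 tested genes without one. At 4 weeks of HFD it was -0.34 and -0.05, and in the low weight gainers against 16-week HFD -0.54 and -0.48. Over the 80 genes, Spearman's rho of the log2 fold change with transcript length was -0.22 in 16 L, 0.36 at 4 weeks of HFD and 0.16 in the low weight gainers against 16-week HFD, across genes that share libraries.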

How the data were processed

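CC mRNA was captured with Smart-seq2 oligo-dT, amplified, and made into libraries with Nextera XT. The authors deposited 1 table of raw counts per gene and library, not normalized. The submitters' processing notes name Trim Galore 0.4.2, HISAT2 2.0.5 and GRCm38. The counting program and its settings for strand and for reads with several matches are not given in the sources used here. Columns were assigned by library name. Replicates were compared in 72 pairs: 0 were identical, and their counts differed beyond sampling noise (chi-square over its degrees of freedom at least 3.38).

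Each comparison was fitted with its own groups in edgeR 4.0.16 (R 4.3.3; filterByExpr, TMM, robust quasi-likelihood F-test, two-sided) over all genes, with calls at a Benjamini-Hochberg adjusted p under 0.05. CPM shown were scaled by TMM over all 34 libraries. Standard errors came from the fitted change and its F statistic. Length and GC were taken from GENCODE M21 (22735 of 25965 entries matched by symbol and 1931 by an older symbol, all 83 members included). The scripts were tested on simulated counts. DESeq2 1.42.0, limma-voom 3.58.1, other scalings and filters, a GC and length offset, and leaving out libraries were tried. The genes named are up to 8 called genes per direction and comparison, Rpl37, the 5 highest and 5 lowest levels, paralogues with their partners, and those said to be chosen by value. Rps4l has no entry that the rule matched. The members and lists were chosen with earlier results of these data known.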

Additional observations from a re-analysis of the deposited data

Results flagged for a closer look

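In 4 of 26 sets of values tested, the highest library of a group lay farther from the next than Dixon's 95% limit allows. Chance alone gives about 1 in 20 for independent sets. These sets share libraries, and many were of genes named because they were called, so that rate does not apply to them. All 4 were in 16-week HFD (n = 7). Replicate 12 was highest for Rps27l (910 CPM, next 516), for Rpl41 (286 CPM, next 187) and for Rpl37 (143 CPM, next 89.1). It also had the highest summed ribosomal protein share of its group (1.88%). Without replicate 12, the median log2 fold change of the ribosomal protein genes in the low weight gainers against 16-week HFD was -0.38. There were 14 calls (17.5%), beside 18.6% of all genes. Replicate 15 was highest for Rpl6 (427 CPM, next 320). The causes were not tested.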

How the results depend on the processing

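Counts of calls changed with the settings, for all genes too, whose share called is given in parentheses. In 16 L against 16 C, 24 ribosomal protein genes were called by DESeq2 (23 higher, 1 lower, 19.2% of all genes), 63 by limma-voom with quality weights (53 higher, 10 lower, 64.4%), 53 with total counts only (34.4%), 2 without a filter (2.66%), 16 with at least 10 counts in every library (11.9%), 40 with all libraries in one fit (37 higher, 3 lower, 33.1%), 13 with the GC and length offset (6.07%) and 31 without replicates 18 and 21 of 16 L (25 higher, 6 lower, 37.8%, added after seeing the data). The median was 1.66 with total counts, where the median of all genes moved from 0.27 to 1.08, and 1.35 with the offset. At 4 weeks of HFD there were 8 calls by DESeq2 (9.76%), 19 by limma-voom (9 higher, 10 lower, 34.5%) and 3 with total counts (5.65%). There were 0 without a filter (2.19%), with one fit (0.521%), with the offset (3.05%) or without HFD replicates 13 and 14 (7.71%). In 16-week HFD there were 3 with total counts (15.2%), and with the offset the median was -0.36. There Rpl37 turned to -0.16 with total counts and -0.28 with the offset. In the low weight gainers against 16-week HFD there were 23 by DESeq2 (all lower, 23.3%), 23 by limma-voom (1 higher, 22 lower, 29.2%), 9 with total counts (1 higher, 8 lower, 19.4%), 1 with one fit (3.68%) and 8 with the offset (8.76%), whose median was -0.17. In the interaction there were 3 by DESeq2 (8.88%), 6 by limma-voom (19.2%), 1 with total counts (7.14%), 1 with at least 10 counts (6.08%) and 2 with the offset (6.90%), whose median was -0.014. With the 50 most abundant other genes left out of the total, the mean share was 2.31% in 16 C, 4.02% in 16 L, 4.03% in 4-week CD, 3.37% in 4-week HFD, 1.99% in 16-week CD, 1.97% in 16-week HFD and 1.55% in the low weight gainers.

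Leaving out 1 library at a time gave 0 to 37 calls in 16 L (0.235% to 41.8% of all genes). The range was 0 to 9 at 4 weeks (0.0674% to 14.4%) and 0 to 3 in 16-week HFD (0.00914% to 20.5%). For the low weight gainers it was 2 to 26 against 16-week HFD (5.19% to 24.5%) and 0 against 16-week CD (0% to 0.00884%). In the interaction it was 0 to 12 (0.556% to 13.8%). The causes were not tested. With only the genes under 50% shared 50-base stretches, the medians were 0.89, -0.30, 0.10, -0.44, -0.32 and 0.55. Groups compared directly share no replicate numbers. In the interaction 7 numbers recur between the 4-week and 16-week groups. Deviations of libraries with the same number correlated at -0.28 to 0.14, over 0.1 in 3 of 7 pairs. So few pairs cannot settle whether such libraries share more than the number. With the replicate block (added after seeing the data, 4 residual degrees of freedom) there were 0 calls (0.082% of all genes), and the median was 1.65.

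Depth sets a floor: a count of 0 allows up to 3 reads, so Rpl39l, Rpl10l and Rpl3l were not detectable in most libraries. Interaction calls used all 4 diet groups. Reads shared with pseudogenes limit the level of single genes.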
